A study of Bos taurus with 15 samples.

Results

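The annexin and S100 genes of subcutaneous adipose tissue of dairy cows were examined in 15 RNA libraries. Annexins are cytosolic proteins that bind negatively charged membrane lipids when calcium rises, and they take part in membrane repair, vesicle traffic and the control of inflammation. S100 proteins are small calcium-binding proteins, most of which act as dimers. Several S100 dimers clamp the end of an annexin and hold membranes together, while others are released and bind receptors on immune cells. In adipose tissue both families are made by adipocytes, fibroblasts, vessel cells and leukocytes.

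The genes were chosen by their names: every row present in all 6 tables whose symbol was ANXA or S100A followed by a number, or S100B, S100G, S100P or S100Z. This gave 29 genes of 13896, of which 12 were annexins and 17 were S100 genes. No row was named S100P, S100A6 or ANXA8. In the ARS-UCD2.0 annotation of RefSeq, all 29 symbols were found, and the 14 S100A genes lie on 1 chromosome, where S100A8, S100A12 and S100A9 are close neighbours, as are S100A3, S100A4 and S100A5.

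All animals were primiparous Prim Holstein cows, and the fat was taken from the dewlap. Their energy balance was severely negative (SNEB, a low-energy diet, LE) or moderately negative (MNEB, a high-energy diet, HE). There were 3 libraries in each of 5 groups: 4 weeks before calving (-4 weeks peripartum, wkpp) and before the diets began, MNEB at 1 and at 16 wkpp, and SNEB at 1 and at 16 wkpp. The samples at -4 wkpp carry no diet in their titles, and the study's methods place the start of the diets at that same time, -4 wkpp. The study took for each NEB group the cows with the most extreme energy balance, so the groups are not a random draw of the herd. According to the study's methods each animal was biopsied at every time, but which libraries come from the same cow and the age of the cows are not given in the sources used here. The 3 libraries at -4 wkpp serve in both comparisons with that time. Because nothing ties the libraries to separate cows beyond the statement of 3 cows per group, the p-values measure the spread between these libraries.

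The values below are normalised exonic counts: reads on the exons of a gene, divided by the relative depth of the library. They were worked out from the mean counts of the deposited tables, and the 3 libraries of a group are always given from the deepest to the shallowest. Counts were not divided by gene length, so values of different genes are not compared. The libraries at -4 wkpp and of SNEB held 7562700.0 to 14135424 exonic reads and those of MNEB 2010723 to 7364573. Synthetic spike-in RNAs took 2.84 to 19.2% of exonic and spike-in reads in the 6 MNEB libraries and 0.187 to 1.55% in the 9 others. Fibroblast markers (PDGFRA, DCN and LUM, since COL1A1 could not be resolved) summed to 6537 to 22253 normalised counts in MNEB and 34069 to 77159.9 in the others. TNNT3, 1 of 6 skeletal muscle markers, had 1181 to 3825 normalised counts in MNEB and 54.9 to 340.3 in the others. The other 5 did not share this: ACTA1, CKM, MYH1, MYLPF and MB were each at 0 in 2 to 9 of the 15 libraries. Adipocyte markers were present in every library (9145 to 87145 over 5 genes, without ADIPOQ), while the mammary markers CSN3 and LALBA together stayed at or under 16.1.

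A gene was tested when its mean normalised exonic count was at least 10 on the scale of that comparison's own 6 libraries, which differs from the common scale of the values given here. It was called when its adjusted p was below 0.01 in the exon and in the whole gene fit, with the same sign (limma voom, Benjamini-Hochberg over all genes tested). Between 20 and 24 of the 29 genes were tested in each comparison. ANXA9, ANXA10, ANXA13, S100A7 and S100Z were not tested in any comparison. S100A3 was tested in 2 comparisons, and S100A5, S100A8 and S100A9 were not tested for MNEB at 1 and 16 wkpp.

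Between -4 wkpp and MNEB at 1 wkpp, 3 of the 23 genes tested were called, and all 3 were higher at -4 wkpp: the calbindin S100G, ANXA8L1 and ANXA2. Over all 10511 genes tested in this comparison, 297 were called (2.83%), 162 higher and 135 lower at -4 wkpp. In the other 5 comparisons none of the annexin and S100 genes was called by limma voom. Over all genes, 534 of 10258 (5.21%) were called for SNEB against MNEB at 16 wkpp, and 0 in the rest of these comparisons. For -4 wkpp against MNEB at 1 wkpp, the median log2 difference of the 23 genes was 1.02 in favour of -4 wkpp. The median over all genes tested was 0.05, and 20 of the 23 differences were positive. An unadjusted p below 0.05 in both fits was reached by 13 of the 23, all higher at -4 wkpp, beside 26.7% of all genes in either direction. All 3 libraries at -4 wkpp lay above all 3 of MNEB in both exon and whole gene counts for 14 of the 23, beside 15.2% of all genes, and none lay below in all, beside 14.8%.

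S100G, also called calbindin D9k, buffers calcium in the cytosol and carries it across epithelia, and it is known as a gene of the uterus and gut that responds to vitamin D and oestrogen. It had 1503, 1555 and 1613 normalised exonic counts at -4 wkpp, 61.0, 188 and 146 in MNEB at 1 wkpp, 267, 759.9 and 322 in SNEB at 1 wkpp, 224, 169 and 108 in MNEB at 16 wkpp, and 199.7, 173 and 549 in SNEB at 16 wkpp. The 3 libraries at -4 wkpp lay above all 12 libraries after calving, and among the latter the times overlapped within either NEB group. The mean was 1557 ± 55.0 at -4 wkpp and 132 ± 64.9 in MNEB at 1 wkpp (SD, n = 3 each), a fitted log2 difference of 3.95 ± 0.37 (SE, adjusted p = 0.000132 for exons and 0.0040 for whole genes, limma voom). Against SNEB at 1 wkpp (449 ± 270.2, SD, n = 3) the log2 difference was 1.95 ± 0.35 (SE), which was not called (adjusted p = 0.031 and 0.093, limma voom). In that comparison 0 of 10718 genes were called with all 6 libraries. The missing call of S100G turned on 1 library. Without SNEB library 2, which had 759.9, the log2 difference was 2.41 and S100G was called (adjusted p = 0.000296 and 0.0031, limma voom). Calls over all genes with 1 library left out are given in the closing section.

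ANXA8L1 belongs to the ANXA8 subfamily, annexins of restricted expression that sit on late endosomes. Its normalised exonic counts were 832, 669 and 817 at -4 wkpp, 125, 126 and 214 in MNEB at 1 wkpp, 285, 511 and 101 in SNEB at 1 wkpp, 989, 343 and 1282 in MNEB at 16 wkpp, and 1212, 747 and 1041 in SNEB at 16 wkpp. The libraries at 1 wkpp lay below those at -4 wkpp in both NEB groups, and at 16 wkpp the counts were in or above the range of -4 wkpp, except for 1 MNEB library at 343. It was higher at -4 wkpp than in MNEB at 1 wkpp by 2.43 ± 0.27 (log2, SE, adjusted p = 0.00028 for exons and 0.0063 for whole genes, limma voom). The differences of -1.97 ± 0.49 for SNEB and -2.39 ± 0.50 for MNEB between 1 and 16 wkpp (log2, 1 wkpp over 16 wkpp, SE) did not overlap between groups but were not called (adjusted p for exons 0.683 and 0.218, limma voom). The difference between these 2 changes was 0.46 ± 0.86 (log2, SE) and was not called either. Since the ANXA8 genes are near-identical copies in some species, the counts of ANXA8L1 are uncertain: reads of another copy could not be told apart from its own.

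ANXA2 binds membranes as a complex with S100A10, and on the cell surface this complex is known as a docking site for plasminogen and its activators. ANXA2 had 11620.2, 12891 and 9965 normalised exonic counts at -4 wkpp, 3657, 2314 and 3297 in MNEB at 1 wkpp, 5325, 9541 and 4981 in SNEB at 1 wkpp, 7831, 4070.2 and 6177 in MNEB at 16 wkpp, and 12073, 7998 and 8729 in SNEB at 16 wkpp. All 3 MNEB libraries at 1 wkpp lay below the 12 other libraries. The mean was 11492 ± 1468 at -4 wkpp and 3089 ± 695 in MNEB at 1 wkpp (SD, n = 3 each), a log2 difference of 1.91 ± 0.24 (SE, adjusted p = 0.000482 for exons and 0.0096 for whole genes, limma voom). Against SNEB at 1 wkpp the difference was 0.85 ± 0.26 (log2, SE, adjusted p = 0.176 for exons), with 1 SNEB library close to the range of -4 wkpp.

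Each of the 3 calls depended on single libraries. None was called without -4 wkpp library 1, 2 or 3 or without MNEB library 3; without MNEB library 2 S100G alone was called, and without MNEB library 1 ANXA2 and S100G. The log2 differences stayed between 3.20 and 4.32 for S100G, 2.17 and 2.60 for ANXA8L1, and 1.71 and 2.06 for ANXA2 under all alternatives. With exon reads alone, 10 of the 23 genes passed an adjusted p below 0.01, beside 16.4% of all genes: ANXA1, ANXA5, ANXA6, ANXA7, S100A10, S100A9 and S100B in addition to the 3. In the same comparison the fibroblast markers summed to 59932 to 71670.0 at -4 wkpp and 6537 to 11643 in MNEB, and all 3 (PDGFRA, DCN and LUM) were called higher at -4 wkpp. The part of the fibroblast markers, of TNNT3, of depth and of the spike-in share in these differences was not tested. In bulk tissue, fewer cells of a type and less RNA per cell cannot be told apart.

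**Figure D1:**
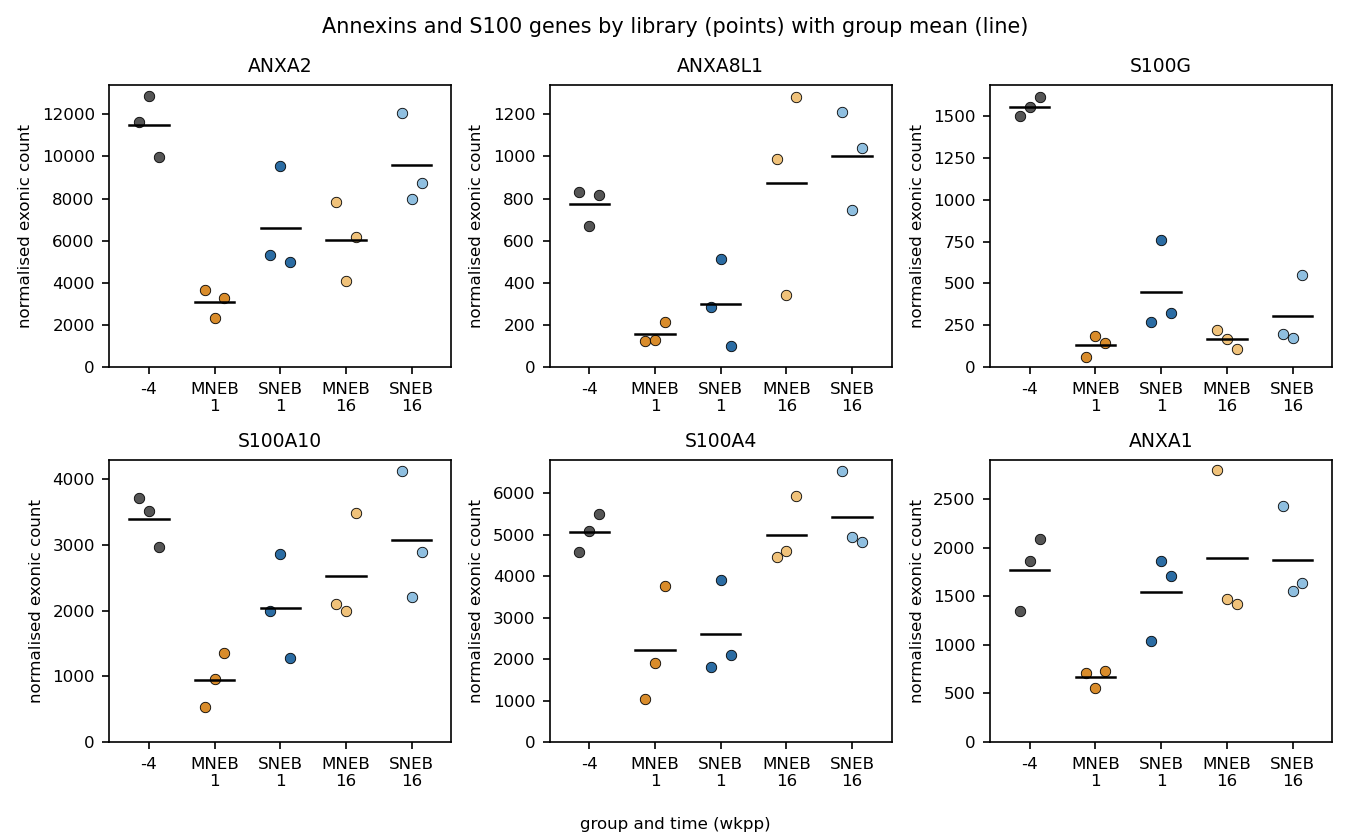
Normalised exonic counts (linear axis) of ANXA2, ANXA8L1, S100G, S100A10, S100A4 and ANXA1 in the 15 libraries, by group and time in wkpp; points are libraries from the deepest to the shallowest, lines are group means. S100G at -4 wkpp sits between 1503 and 1613 and above every other library, and the means of ANXA8L1 are lowest at 1 wkpp in both NEB groups.

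S100A10 and S100A11 are the S100 partners of ANXA2 and ANXA1. S100A10, known as p11, had 3718, 3515 and 2968 normalised exonic counts at -4 wkpp, 534, 963 and 1356 in MNEB at 1 wkpp, 1989.6, 2863 and 1275 in SNEB at 1 wkpp, 2106, 2003 and 3483 in MNEB at 16 wkpp, and 4125, 2203 and 2899 in SNEB at 16 wkpp. As for its partner ANXA2, MNEB at 1 wkpp was the lowest group, although its shallowest library reached the lowest SNEB library. The log2 difference between -4 wkpp and MNEB at 1 wkpp was 1.97 ± 0.31 (SE) and missed the call by a narrow margin in whole gene reads (adjusted p = 0.0015 for exons and 0.0101 for whole genes, limma voom). For each 100 ANXA2 reads there were 25.6 to 37.4 S100A10 reads in the 9 libraries at -4 wkpp and of SNEB, and 14.6 to 56.4 in the 6 MNEB libraries. Between MNEB at 1 and 16 wkpp S100A10 differed by -1.48 ± 0.36 (log2, SE, adjusted p = 0.232 for exons), without overlap.

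S100A11, a partner of ANXA1, had 693, 837 and 609 normalised exonic counts at -4 wkpp, 557, 349.8 and 378 in MNEB at 1 wkpp, 889.6, 1191 and 626 in SNEB at 1 wkpp, 853, 704 and 975 in MNEB at 16 wkpp, and 1088, 870.5 and 964 in SNEB at 16 wkpp. In exonic counts the MNEB libraries at 1 wkpp lay below those of every other group. SNEB at 1 wkpp was above MNEB by 1.00 ± 0.30 (log2, SE), which was not called (adjusted p = 0.052 for exons and 0.163 for whole genes, limma voom).

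Among the other core annexins, ANXA1, ANXA5 and ANXA7 shared MNEB at 1 wkpp as the lowest group. ANXA1, which dampens the recruitment of leukocytes and is induced by glucocorticoids, had 1352, 1867 and 2092 normalised exonic counts at -4 wkpp, 712, 557 and 728 in MNEB at 1 wkpp, 1038, 1867 and 1715 in SNEB at 1 wkpp, 2797, 1470.2 and 1419.6 in MNEB at 16 wkpp, and 2435, 1552 and 1639 in SNEB at 16 wkpp. MNEB at 1 wkpp did not overlap with -4 wkpp, with SNEB at 1 wkpp or with MNEB at 16 wkpp. The log2 differences were 1.40 ± 0.24 for -4 wkpp over MNEB at 1 wkpp (adjusted p = 0.0020 for exons and 0.0149 for whole genes), 1.18 ± 0.27 for SNEB over MNEB at 1 wkpp (0.023 and 0.049) and -1.42 ± 0.29 for MNEB at 1 over 16 wkpp (0.218 and 0.155; SE, limma voom).

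ANXA7, or synexin, which promotes membrane fusion, had 1302, 1556 and 1202 normalised exonic counts at -4 wkpp, 694, 538 and 574 in MNEB at 1 wkpp, 1122, 1617 and 1077 in SNEB at 1 wkpp, 1392, 1366 and 1366 in MNEB at 16 wkpp, and 2157, 1649.8 and 1358 in SNEB at 16 wkpp. Again the 3 MNEB libraries at 1 wkpp lay below all others. The log2 difference was 1.15 ± 0.22 for -4 wkpp over MNEB at 1 wkpp, 1.05 ± 0.24 for SNEB over MNEB at 1 wkpp and -1.18 ± 0.20 for MNEB at 1 over 16 wkpp (SE), none of them called. ANXA5, which binds phosphatidylserine and is the probe used to stain dying cells, had 2751, 2762 and 4044 at -4 wkpp, 1637, 1574 and 1609 in MNEB at 1 wkpp, 2294, 2525 and 3542 in SNEB at 1 wkpp, 2835, 2694 and 3073 in MNEB at 16 wkpp, and 3071, 3229 and 2233 in SNEB at 16 wkpp. Its 3 MNEB libraries at 1 wkpp (1607 ± 31.4, SD, n = 3) lay below the 12 others, with a log2 difference from -4 wkpp of 0.96 ± 0.22 (SE, adjusted p = 0.0077 for exons and 0.033 for whole genes, limma voom).

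Of the remaining core annexins, ANXA6 also had its lowest mean in MNEB at 1 wkpp. ANXA6, a membrane annexin with a doubled core that is abundant in fat, ranged from 923 to 2529 over the 15 libraries, with a log2 difference of 1.00 ± 0.22 between -4 wkpp and MNEB at 1 wkpp (SE, adjusted p = 0.0074 for exons and 0.027 for whole genes, limma voom). ANXA4, which self-assembles on membranes, had 3065, 2391 and 3012 normalised exonic counts at -4 wkpp, 2261, 2820.0 and 4043 in MNEB at 1 wkpp, 2385, 2594 and 3019 in SNEB at 1 wkpp, 3531, 3452 and 4418 in MNEB at 16 wkpp, and 4491, 3754 and 2684 in SNEB at 16 wkpp. In exonic counts SNEB and MNEB overlapped at both times. In whole gene counts, which include introns, ANXA4 had 8559, 9235 and 9369 in SNEB against 6820.3, 4618 and 5952 in MNEB at 1 wkpp, and 13186, 13238 and 9550.4 against 7479.6, 6864 and 8987 at 16 wkpp. The whole gene counts of SNEB thus lay above those of MNEB at both times, without a call (adjusted p = 0.123 and 0.063 for whole genes, limma voom). ANXA11, which ties RNA granules to lysosomes, was the steadiest of the genes with reads in every library: its highest library (2449) had 1.69 times the count of its lowest (1445). ANXA3 ranged from 325 to 729, and its 2 highest values were those of the deepest MNEB library at each time.

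**Figure D2:**
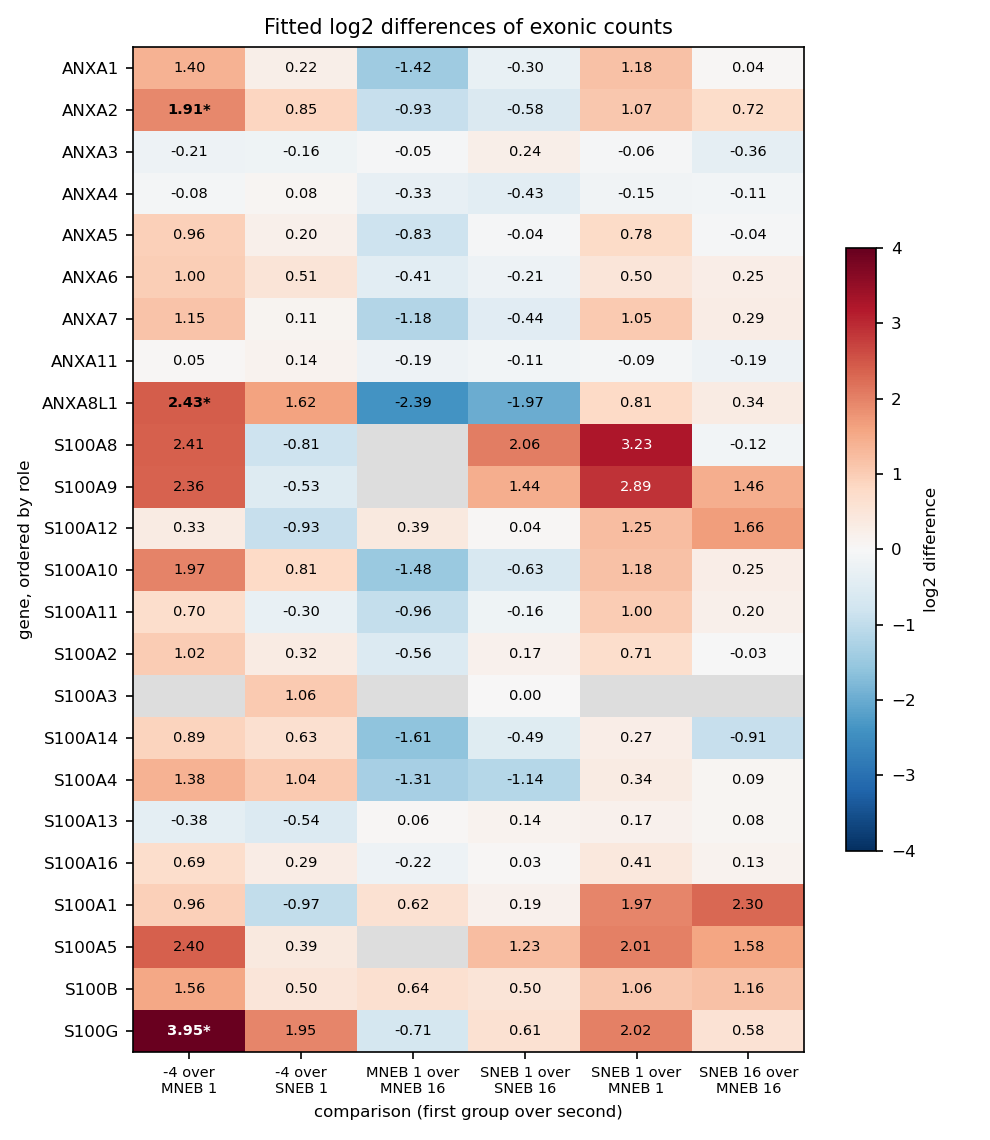
Fitted log2 differences of exonic counts for the 24 genes tested in at least 1 of the 6 comparisons (first group over second), rows ordered by role; the colour runs from blue (lower in the first group) to red (higher), grey marks genes not tested, and bold values with an asterisk mark the 3 calls. ANXA2 (1.91), ANXA8L1 (2.43) and S100G (3.95) are called in the first column, and ANXA3, ANXA4 and ANXA11 stay between -0.43 and 0.24.

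The calgranulins S100A8, S100A9 and S100A12 are made above all by neutrophils and monocytes, are released in inflammation and bind TLR4 and AGER. S100A8 had 28.0, 33.2 and 35.4 normalised exonic counts at -4 wkpp, 7.37, 0 and 17.8 in MNEB at 1 wkpp, 141, 35.9 and 32.2 in SNEB at 1 wkpp, 8.86, 23.4 and 18.9 in MNEB at 16 wkpp, and 29.5, 4.34 and 15.8 in SNEB at 16 wkpp. One SNEB library at 1 wkpp stood far above the 14 others. The 3 MNEB libraries at 1 wkpp held 7, 0 and 5 reads of S100A8, and at the depth of the second a count of 0 allows up to 8.07 normalised counts (3 reads). This limit covers counting error only.

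S100A9, the partner of S100A8 in calprotectin, had 106, 88.4 and 81.0 normalised exonic counts at -4 wkpp, 22.1, 10.8 and 14.3 in MNEB at 1 wkpp, 329.6, 86.9 and 77.5 in SNEB at 1 wkpp, 10.8, 41.6 and 16.2 in MNEB at 16 wkpp, and 113, 21.1 and 42.8 in SNEB at 16 wkpp. The same SNEB library, the deepest at 1 wkpp, was again the highest, and all MNEB libraries were below all libraries at -4 wkpp and of SNEB at 1 wkpp. The log2 difference of S100A9 between SNEB and MNEB at 1 wkpp was 2.89 ± 1.22 (SE) and was not called (adjusted p = 0.137 for exons and 0.262 for whole genes, limma voom); that between -4 wkpp and MNEB at 1 wkpp was 2.36 ± 0.54 (0.0087 and 0.049). S100A8 differed by 3.23 ± 1.57 between SNEB and MNEB at 1 wkpp and by 2.06 ± 0.87 between SNEB at 1 and 16 wkpp (log2, SE, adjusted p = 0.191 and 0.683 for exons).

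S100A12 did not share this pattern of libraries. It ranged from 21.5 to 723, its highest library was the second deepest of SNEB at 1 wkpp, and its groups overlapped in all 6 comparisons. The neutrophil markers CXCR2, MPO, ELANE, LTF and FCGR3A summed to 314 to 499 in SNEB and 143 to 321 in MNEB at 1 wkpp, most of it FCGR3A, and ELANE was at 7.14 normalised counts or fewer in all libraries. In the SNEB library with the most S100A8 and S100A9, LTF, a secretory granule protein, had 147 normalised counts against 32.3 at most elsewhere, while FCGR3A was at 211, the lowest of its group. The part of neutrophils in the calgranulin counts was not tested beyond these values.

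**Figure D3:**
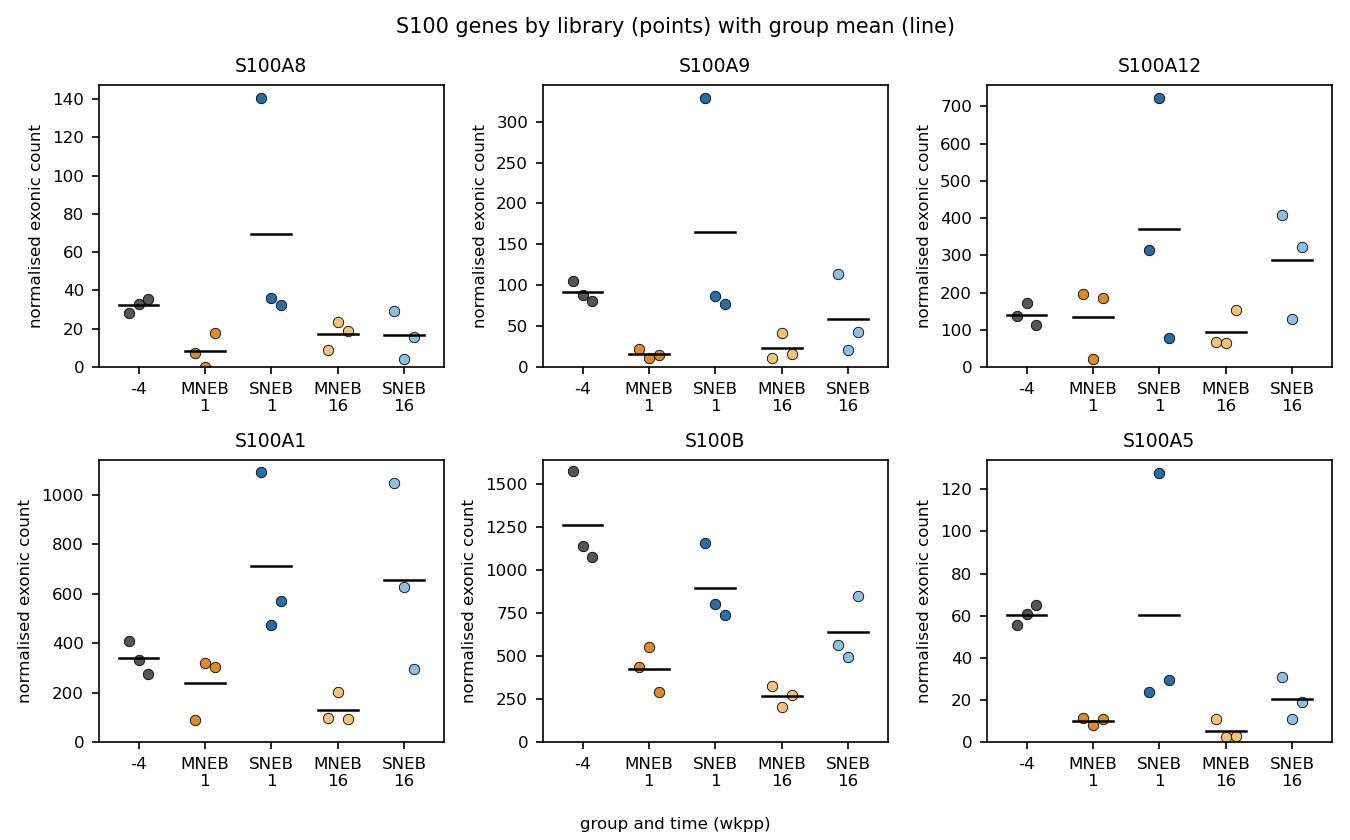
Normalised exonic counts (linear axis) of S100A8, S100A9, S100A12, S100A1, S100B and S100A5 in the 15 libraries, by group and time in wkpp; points are libraries from the deepest to the shallowest, lines are group means. One SNEB library at 1 wkpp carries S100A8 (141) and S100A9 (329.6), another S100A12 (723) and S100A5 (128), and the mean of S100B is highest at -4 wkpp.

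The counts of S100A1 and S100B were higher in all SNEB than in all MNEB libraries at 1 and at 16 wkpp, without a call. Of all genes tested, 13.8% did so at 1 wkpp and 15.0% at 16 wkpp, and the share at both times was not counted. S100A1, which is known for binding the calcium pump and ryanodine receptor of muscle, had 410.2, 333 and 277 normalised exonic counts at -4 wkpp, 89.5, 320.2 and 303 in MNEB at 1 wkpp, 1094, 472 and 569 in SNEB at 1 wkpp, 97.4, 203 and 94.3 in MNEB at 16 wkpp, and 1049, 629 and 294 in SNEB at 16 wkpp. All SNEB libraries lay above all MNEB libraries of the same time. Of the muscle markers, TNNT3 had the opposite order at both times, and the other 5 were near 0 in most libraries. SNEB was above MNEB by 1.97 ± 0.51 at 1 wkpp (adjusted p = 0.033 for exons and 0.097 for whole genes) and by 2.30 ± 0.56 at 16 wkpp (0.018 and 0.031; log2, SE, limma voom). At 16 wkpp 1 library decided the call of S100A1. Without SNEB library 3, which had 294, the log2 difference was 2.78 and S100A1 was called (adjusted p = 0.0029 and 0.0050, limma voom). With all 6 libraries of that comparison, 534 of 10258 genes (5.21%) were called.

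S100B, made by glial cells and also made and released by adipocytes, had 1577, 1140.0 and 1079 normalised exonic counts at -4 wkpp, 435, 554 and 293 in MNEB at 1 wkpp, 1157, 802 and 739 in SNEB at 1 wkpp, 329, 203 and 275 in MNEB at 16 wkpp, and 568, 495 and 851 in SNEB at 16 wkpp. At each time the 3 SNEB libraries were above the 3 MNEB libraries, and MNEB at 16 wkpp held the lowest mean, 269 ± 63.3 (SD, n = 3). The difference between SNEB and MNEB was 1.06 ± 0.28 at 1 wkpp and 1.16 ± 0.27 at 16 wkpp (log2, SE), with adjusted p values for whole genes of 0.129 and 0.081 (limma voom). The adipocyte markers summed to 17862 to 55956 in MNEB and 71676 to 87145 in SNEB at 1 wkpp, and to 9145 to 39120.3 and 41612 to 48258 at 16 wkpp. PLIN1 and FABP4 carried most of these sums, while LIPE overlapped between SNEB and MNEB at both times. All CIDEC counts of SNEB lay above those of MNEB at both times, without a call. Those of LEP did so at 1 wkpp, with 427, 630.3 and 423 against 57.9, 118 and 171, also without a call, while at 16 wkpp it had a lower mean in SNEB, with 42.1, 8.68 and 13.2 against 155, 36.4 and 48.5, which overlap. The Schwann cell gene CDH19 was called lower in SNEB than in MNEB at 16 wkpp, by a log2 difference of -2.10 ± 0.33 (SE, adjusted p = 0.0030 and 0.0057, limma voom), and SOX10 differed by -1.71 ± 0.44 without a call, both opposite to S100B. The part of these cells in the S100B counts was not tested.

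S100A5, known from olfactory neurons and of few reads here, had 55.4, 60.8 and 65.1 normalised exonic counts at -4 wkpp, 11.6, 8.07 and 10.7 in MNEB at 1 wkpp, 24.0, 128 and 29.5 in SNEB at 1 wkpp, 10.8, 2.60 and 2.69 in MNEB at 16 wkpp, and 31.1, 11.2 and 19.1 in SNEB at 16 wkpp. The 3 libraries at -4 wkpp lay close together, and only the second deepest SNEB library at 1 wkpp was above them. The log2 difference between -4 wkpp and MNEB at 1 wkpp was 2.40 ± 0.59 (SE, adjusted p = 0.0126 for exons and 0.026 for whole genes, limma voom). The same SNEB library was the highest of its group for other genes too, among them S100G, ANXA2, ANXA8L1, S100A10, S100A4, S100A11 and S100A12.

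S100A4, S100A13 and S100A16 are S100 genes of fibroblasts and other mesenchymal cells. S100A4, known as fibroblast-specific protein, had 4579.7, 5088 and 5505 normalised exonic counts at -4 wkpp, 1034, 1905 and 3757 in MNEB at 1 wkpp, 1808, 3902 and 2103 in SNEB at 1 wkpp, 4470.3, 4608 and 5945 in MNEB at 16 wkpp, and 6542, 4941 and 4817 in SNEB at 16 wkpp. Like those of ANXA8L1, its means were lowest at 1 wkpp in both NEB groups, and the 6 libraries at 1 wkpp lay below the 9 others. The log2 differences were 1.38 ± 0.39 and 1.04 ± 0.28 for -4 wkpp over MNEB and SNEB at 1 wkpp, and -1.31 ± 0.41 and -1.14 ± 0.29 for 1 over 16 wkpp in MNEB and SNEB (SE), none of them called. The fibroblast markers did not follow S100A4 at 16 wkpp: they summed to 9059 to 22253 in MNEB and 68541 to 77159.9 in SNEB, while the S100A4 counts of these groups overlapped. S100A13, a carrier for proteins released without a signal peptide, ranged from 444 to 1351, and S100A16, which promotes adipocyte formation, from 374 to 1104, with log2 differences of 0.69 or less in size in all comparisons.

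Among the epidermal S100 genes, S100A14 had groups that did not overlap and differed by a log2 of at least 1 in a comparison where it was tested. Its normalised exonic counts were 417, 878 and 625 at -4 wkpp, 273, 258 and 599 in MNEB at 1 wkpp, 322, 502 and 380.1 in SNEB at 1 wkpp, 877, 823 and 1517 in MNEB at 16 wkpp, and 668, 469 and 530.2 in SNEB at 16 wkpp. MNEB at 16 wkpp was above MNEB at 1 wkpp and above SNEB at 16 wkpp in every library. The log2 difference was -1.61 ± 0.36 for MNEB at 1 over 16 wkpp (adjusted p = 0.220 for exons) and -0.91 ± 0.25 for SNEB over MNEB at 16 wkpp (0.031; SE, limma voom). Keratinocyte markers (7 genes) summed to 31.2 to 107 in MNEB and 11.8 to 14.8 in SNEB at 16 wkpp, and SFN was the 1 of them that did not overlap. S100A2 ranged from 18.8 to 72.5, and S100A3, a protein of the hair cuticle, from 2.60 to 24.0. S100A3 had 14.6, 24.0 and 11.2 at -4 wkpp, 4.21, 5.38 and 3.57 in MNEB at 1 wkpp, 7.63, 16.3 and 3.28 in SNEB at 1 wkpp, 3.94, 2.60 and 2.69 in MNEB at 16 wkpp, and 12.6, 4.96 and 6.58 in SNEB at 16 wkpp. Its libraries at -4 wkpp lay above those of MNEB at 1 wkpp, a comparison in which it was not tested. At -4 wkpp the hair keratins KRT31, KRT85, KRT25 and KRT27 summed to 233 to 877 normalised counts, against 64.6 at most in the other groups. S100A7 had 37 exonic reads in the 15 libraries together.

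ANXA9, ANXA10, ANXA13 and S100Z had next to no exonic reads, 47, 10, 11 and 1 in the 15 libraries together. ANXA10, an annexin of the stomach, had 1306 reads over the entire gene, 99.2% of them outside exons. They lay in few libraries: the normalised whole gene count was 737 and 815 in the 2 shallower MNEB libraries at 1 wkpp, 303 in the shallowest library at -4 wkpp, 116 and 107 in the deepest libraries of MNEB and SNEB at 16 wkpp, and 29.7 or lower in the 10 others. Whether such reads come from the ANXA10 transcript or from other RNA of the region was not tested. ANXA13, an annexin of gut and kidney, had whole gene counts of 24.9, 77.7, 25.9, 17.0 and 11.8 in the same 5 libraries and 0.65 or less elsewhere. Over all genes 52.8% of the reads lay outside exons, and among the genes tested here the share ran from 0.58% for S100A12 to 70.5% for ANXA3.

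In the comparison of -4 wkpp with SNEB at 1 wkpp, 0 of 24 annexin and S100 genes were called by limma voom, 0 by limma-trend, and 6 had an unadjusted p below 0.05 in both fits, beside 9.93% of all genes (0 of 10718 genes called, 0.0%). The 6 were ANXA2, ANXA8L1, S100A4 and S100G, higher at -4 wkpp, and S100A1 and S100A13, lower. In 3 genes all libraries at -4 wkpp lay above those of SNEB (beside 6.25% of all genes), and in 2 they lay below (5.47%). The median log2 difference of the 24 genes was 0.26, and that of all genes -0.03.

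For MNEB at 1 against 16 wkpp, 0 of 20 genes were called by limma voom and 0 by limma-trend (0 of 9885 over all genes, 0.0%), and 9 had an unadjusted p below 0.05 in both fits, all lower at 1 wkpp, beside 8.47% of all genes. They were ANXA1, ANXA2, ANXA5, ANXA7, ANXA8L1, S100A10, S100A11, S100A14 and S100A4, which were also the 9 genes in which all libraries at 1 wkpp lay below those at 16 wkpp, beside 7.35% of all genes; no gene lay above in all, beside 4.91%. The median log2 difference was -0.63, and -0.01 over all genes. For SNEB at 1 against 16 wkpp, 0 of 24 were called by limma voom and 0 by limma-trend (0 of 10614 over all genes, 0.0%), 3 had an unadjusted p below 0.05 in both fits (4.64% of all genes), namely ANXA8L1 and S100A4, lower at 1 wkpp, and S100A8, higher. All libraries at 1 wkpp lay above those at 16 wkpp for ANXA3 and S100A8, beside 3.95% of all genes, and below for ANXA8L1 and S100A4, beside 2.57%. The median log2 difference was -0.02, and -0.01 over all genes. The difference between these changes was tested for 23 genes, and 0 were called by limma voom or limma-trend. Over all 10439 genes tested, limma voom also called 0. An unadjusted p below 0.05 in both fits was reached by 5 of the 23 (ANXA1, ANXA5, ANXA7, S100A11 and S100A14), beside 3.08% of all genes. The change from 1 to 16 wkpp is thus not shown to differ between SNEB and MNEB for any of the 23 genes.

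Between SNEB and MNEB at 1 wkpp, 0 of 23 genes were called by limma voom and 0 by limma-trend (0 of 10468 over all genes, 0.0%). An unadjusted p below 0.05 in both fits was reached by 9, all higher in SNEB, beside 19.7% of all genes: ANXA1, ANXA2, ANXA5, ANXA7, S100A1, S100A10, S100A11, S100B and S100G. The libraries of SNEB lay above those of MNEB in 11 genes, beside 13.8% of all genes, and below in none, beside 12.3%. The median log2 difference was 1.00, against 0.07 over all genes. At 16 wkpp, where 534 of 10258 genes were called (5.21%), 0 of the 23 annexin and S100 genes were called by limma voom and 0 by limma-trend, and 4 had an unadjusted p below 0.05 in both fits beside 26.9% of all genes. These were S100A1, S100A12 and S100B, higher in SNEB, and S100A14, lower. All SNEB libraries lay above all MNEB libraries for S100A1 and S100B, beside 15.0% of all genes, and below for S100A14, beside 15.7%. The median log2 difference was 0.20, against 0.03 over all genes. Each group enters 2 or 3 of the 6 comparisons, so their results are not independent.

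Of the genes known to work with these families, 7 of 10 partners and membrane repair genes and 7 of 9 receptors and plasminogen genes had rows. BSG, a surface receptor that binds S100A9, was called higher at -4 wkpp than in MNEB at 1 wkpp, the only call of these lists in that comparison. BSG had 5475, 5739 and 4925 normalised exonic counts at -4 wkpp, 1170.4, 821 and 846 in MNEB at 1 wkpp, 2040.2, 2332 and 1374 in SNEB at 1 wkpp, 2139.7, 795 and 1134 in MNEB at 16 wkpp, and 2138, 1861 and 2721 in SNEB at 16 wkpp. As with S100G, the libraries at -4 wkpp lay together above the 12 later ones, with a log2 difference of 2.51 ± 0.22 from MNEB at 1 wkpp (SE, adjusted p = 0.000115 for exons and 0.0048 for whole genes, limma voom).

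TLR4, the receptor of S100A8 and S100A9 on macrophages and adipocytes, was higher in SNEB than in MNEB at 16 wkpp, with 1392, 1605 and 1394 against 377, 618 and 514 (log2 difference 1.61 ± 0.21, SE, adjusted p = 0.0015 and 0.0064, limma voom). The macrophage markers moved with it, from 2039 to 2341 in MNEB to 10916 to 14279 in SNEB, and their part was not tested. DYSF, the dysferlin of membrane repair and abundant in muscle, was lower in SNEB than in MNEB at 16 wkpp, with 906, 1213 and 981 against 4604, 4026 and 3049 (log2 difference -1.89 ± 0.20, SE, adjusted p = 0.00077 and 0.0063, limma voom). Of the muscle markers TNNT3 moved with it, with 307, 339.7 and 226 in SNEB against 1654, 3075 and 3763 in MNEB, and its part was not tested. AGER, the other calgranulin receptor, had 37.4, 45.9 and 55.9 in SNEB and 142, 101 and 156 in MNEB at 16 wkpp and missed the call (adjusted p = 0.0045 for exons and 0.0107 for whole genes). Among the others of both lists, none was called in any of the 6 comparisons.

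**Figure D4:**
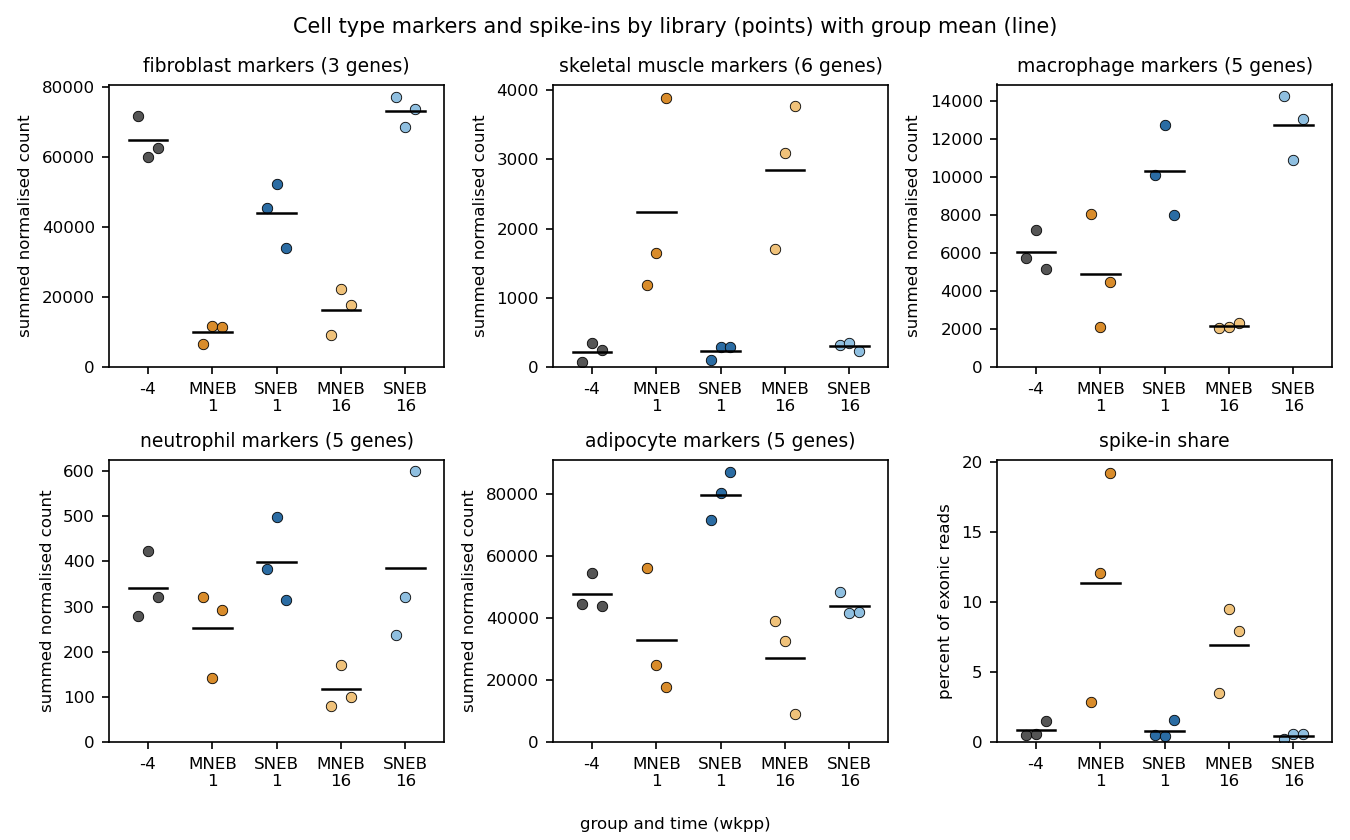
Summed normalised exonic counts of fibroblast, skeletal muscle, macrophage, neutrophil and adipocyte markers, and the spike-in share in percent of exonic and spike-in reads (all linear axes), in the 15 libraries by group and time in wkpp; points are libraries, lines are group means. The muscle sum is mostly TNNT3. Fibroblast markers are at 22253 or lower in the 6 MNEB libraries and at 34069 or higher in the 9 others, and the spike-in share is at 2.84% or higher in MNEB and at 1.55% or lower in the others.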

How the data were processed

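The authors sequenced ribosome-depleted stranded total RNA libraries (single reads), trimmed the reads with Cutadapt 1.3, aligned them with TopHat2 to bosTau8, counted them per gene with HTSeq and compared groups with DESeq2. Each of the 6 deposited tables covers 1 comparison of 3 with 3 libraries. The other values in the deposited tables, used here, are the authors' mean counts over these 6 libraries after division by size factors, for exons and for entire genes. The tables also hold the authors' log2 fold changes, standard errors, test statistics and p-values, which were not used. Columns of samples outside the series numbered 0.

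The planned test needed counts of each library, which the tables do not list. Each mean is a sum of 6 whole read counts, each times the weight of its library, printed in full precision. The weights were read from genes with a single read, and the whole counts of all 15 libraries were then solved jointly from the 6 means of a gene by lattice reduction (sympy 1.14.0), up to a mean of 100000, a limit raised once it was seen which abundant genes a lower one lost. The tables that share a library give its group. Which library of a group is which labelled replicate is unknown, so libraries are numbered by depth. Counts were obtained for 13884 of 13896 genes in both read classes. Means left out of the solution were predicted from the others in 1200 of 1200 trials per read class, 86 of 86 spike-ins had identical counts in the exon and the whole gene solution, and in a test on simulated counts 3000 of 3000 were solved exactly. In 98.2% of gene and library values, the whole gene count was at least the exon count.

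Counts were divided by the authors' size factors and fitted with limma voom (limma 3.58.1, R 4.3.3) on the 6 libraries of each comparison, with no covariate, after a filter of a mean normalised exonic count of at least 10, scaled by the size factors of that comparison's table (the values of each library are printed on a scale common to all 15). Called means an adjusted p below 0.01 (Benjamini-Hochberg) in both read classes with the same sign. The threshold and the need for both read classes follow the authors, who applied them to DESeq2, and the condition on the sign was added here. DESeq2 itself was not run here. In simulated data for -4 wkpp against MNEB at 1 wkpp (10524 genes), 73.2% of genes changed by a log2 of 1.5 and 100% of those changed by 3 were called, with 0 false calls. Whether these shares and the 0 false calls hold at the spread of the real libraries was not tested. A contrast over the 12 libraries after calving tested whether the NEB groups differed in their change between 1 and 16 wkpp. Alternatives were a single read class, a threshold of 0.05, no filter, scaling by total reads, limma-trend, 1 fit on all 15 libraries, and leaving out each library.

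All members are named; values of every library are given for those called, for the 5 with the highest mean count, and for those whose groups did not overlap in both read classes with a log2 difference of at least 1. The members, role groups, pathway genes and marker lists were chosen with earlier results of these data known. DYSF, TLR4, AGER and BSG come from these lists. The Schwann cell list is reported for 2 genes only. No sequence is shown. Computations used Python 3.11.15, numpy 2.4.6, pandas 2.3.3 and matplotlib 3.10.9.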

Additional observations from a re-analysis of the deposited data

Results flagged for a closer look

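The synthetic spike-in RNAs, which enter none of the comparisons, took a larger share of the reads in all MNEB libraries than in any other library. Their share of exonic and spike-in reads was 2.84% in the lowest MNEB library and 19.2% in the highest, against 0.187 to 1.55% in the 9 libraries at -4 wkpp and of SNEB. The same 6 libraries had the fewest exonic reads, 2010723 to 7364573. Its part in the annexin and S100 results was not tested.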

How the results depend on the processing

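No paired analysis was possible because the libraries recovered from the tables carry no replicate number; the replicate numbers used here order the libraries of a group by depth. For -4 wkpp against MNEB at 1 wkpp, the 3 calls became 10 with exon reads alone, 11 at an adjusted p below 0.05, 7 in 1 fit on all 15 libraries and 1 (S100G) without the filter on low counts, where more genes were tested. They stayed at 3 with whole gene reads alone and with scaling by total reads, and were 2 with limma-trend (S100G and S100A5). Leaving out 1 library gave 0 to 2 calls. For -4 wkpp against SNEB at 1 wkpp, leaving out 1 library gave 0 to 1 calls (S100G). For SNEB against MNEB at 1 wkpp, an adjusted p below 0.05 gave 1 call (ANXA1) in place of 0. At 16 wkpp that threshold gave 2 (S100A1 and S100A14) and leaving out 1 library 0 to 1 (S100A1). The comparisons of 1 with 16 wkpp, and the difference between them, gave 0 calls under every alternative run. Over all genes, the 297 calls for -4 wkpp against MNEB at 1 wkpp became 1729 with exon reads alone, 1259 at 0.05, 66 without the filter, 176 with limma-trend, 1163 in the fit on all libraries and 0 to 205 with 1 library left out. The 0 calls for SNEB against MNEB at 1 wkpp became 200 with exon reads alone, 294 at 0.05, 370 in the fit on all libraries and 0 to 336 with 1 library left out. The 534 at 16 wkpp became 1067, 1535 at 0.05, 271 without the filter, 228 with limma-trend and 127 to 379 with 1 library left out. The 0 for -4 wkpp against SNEB became 54 with exon reads alone, 60 at 0.05, 4 without the filter, 3 with limma-trend, 36 in the fit on all libraries and 0 to 98 with 1 library left out. Beyond the smaller sets of genes or libraries, the cause was not tested. Of 35 log2 differences given by the rule for named members, none changed sign under any alternative. The rule took only differences that were called or whose groups did not overlap, so a change of sign was unlikely from the start. Depth limits the MNEB libraries most: in the shallowest, 3 reads are worth 10.7 normalised counts.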
